A study of Mus musculus with 3 samples.

Results

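Conventional CD4 T cells are helper T cells that carry the CD4 co-receptor and lack the regulatory factor FOXP3. They were taken here from the blood of untreated male mice, as every barcode that passed a gate on raw UMI counts (unique molecular identifiers, 1 per captured molecule). The gate asked for 200 or more detected genes and a sum of 4 or more UMIs over Cd3e, Cd3d, Cd3g, Trac and Trbc2. It allowed a sum of at most 2 over Cd79a, Cd79b and Ms4a1 and of at most 1 over Csf1r and Csf3r, required 1 or more Cd4 UMIs, and required 0 UMIs of Cd8a, Cd8b1 and Foxp3. It kept 2305 of 22688 barcodes with 200 or more genes. Because measured values chose the cells, the 14 gate genes are described and not tested.

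The study profiled blood leukocytes of mice 8, 9 and 10 weeks old, with 1 library per age, called replicates 1, 2 and 3. Red cells were lysed, and leukocytes stained with the DNA dyes DAPI and Draq5 were sorted and then fixed for multiplexed, probe-based 10x RNA profiling. All mice were untreated, so no treatment was compared, and age and library cannot be told apart. The labels do not say whether each library came from 1 animal, so the p-values below measure the spread between these 3 libraries. The comparison classes were CD8 T cells (the same gate with 1 or more Cd8a or Cd8b1 UMIs and no Cd4, 3065 barcodes), Foxp3-positive CD4 T cells (1 or more Foxp3 UMIs, 159 barcodes) and all 20383 other barcodes.

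CD4 T cells leave the thymus as naive cells that circulate between blood and lymph nodes. The lymph node homing receptor CCR7 helps to guide this route, and transcription factors such as LEF1 and TCF1 (Tcf7) maintain the naive state. After meeting antigen they divide, and the memory and effector cells that remain lower the homing programme and gain adhesion molecules, chemokine receptors and lineage-specific factors: T-bet (Tbx21) for Th1 cells, GATA3 for Th2 cells and BCL6 for follicular helper cells. CXCR3 is a chemokine receptor of Th1-type cells, CCL5 a chemokine made by antigen-experienced lymphocytes, and IL2RB the beta chain shared by the IL-2 and IL-15 receptors.

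The libraries held 45718031, 19591648 and 23443660 UMIs in replicates 1, 2 and 3, over 19059 genes. The median conventional CD4 T cell held 3609, 3425 and 3242.5 UMIs in the same order, against 3542, 3282 and 3144 UMIs in all other barcodes. Signal of red cells differed strongly between libraries: the summed level of 8 erythroid genes was 645, 26907 and 5311 CPM (UMIs per 1000000 UMIs of the class) in conventional CD4 T cells, and its part in the results was not tested. Between libraries, 232 barcodes were shared, of which 2 were conventional CD4 T cells. A doublet caller marked 17, 1 and 1 conventional CD4 T cells.

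Conventional CD4 T cells made up 13.3% of barcodes in replicate 1 (exact binomial 95% interval 12.7 to 14.0), 7.15% in replicate 2 (6.45 to 7.89) and 7.21% in replicate 3 (6.60 to 7.86). Their share of all barcodes was thus higher in replicate 1 than in both other libraries. Among T-cell barcodes the share was even, at 36.5%, 34.0% and 37.6% (36.1% ± 1.83, SD, n = 3). Intervals cover counting error only. Foxp3-positive cells were 6.65% ± 2.55 of CD4 T cells (SD, n = 3).

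At the edges of the gate, 12 cells had exactly 4 T-cell receptor complex UMIs and 4 barcodes that met every other criterion had 3. A single Cd4 UMI admitted 395 cells, and 390 barcodes met all other criteria with no Cd4 UMI, so the Cd4 threshold lay in a densely filled range. One Cd8a or Cd8b1 UMI kept out 253 barcodes, and 1 Foxp3 UMI kept out 31.

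The cells were also described by 6 marker genes that were chosen on these data and are therefore given here without a test. Cd4 itself, required by the gate, stood at 990, 965 and 988 CPM in conventional CD4 T cells, against 53.5, 21.9 and 30.3 CPM in all other barcodes. Lef1 had 1463, 1558 and 1558 CPM in conventional CD4 T cells, against 380, 226 and 225 CPM in other barcodes. Tcf7 had 1468, 1413 and 1465 CPM in conventional CD4 T cells, against 357, 207 and 201 CPM in other barcodes. Both factors of the naive programme were thus several times as high in these cells, in every library. Igfbp4, which encodes a binding protein for insulin-like growth factors, had 2072, 2036 and 2324 CPM in conventional CD4 T cells, against 242, 127 and 145 CPM in other barcodes. Cd40lg, the helper ligand for CD40 on B cells, had 217, 186 and 218 CPM in conventional CD4 T cells, against 13.2, 5.14 and 7.82 CPM in other barcodes. Pdlim4, a PDZ and LIM domain gene, had 190, 163 and 202 CPM in conventional CD4 T cells, against 11.2, 5.78 and 8.15 CPM in other barcodes. The 3 libraries lay close together for each marker. Counts come from gene-specific probes, so levels of different genes cannot be ranked against each other.

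Cell by cell, the markers were not equally frequent. Over the 3 libraries, 96.3% of conventional CD4 T cells had a Lef1 UMI and 96.9% a Tcf7 UMI, while 78.3% had Igfbp4, 47.3% Cd40lg and 33.1% Pdlim4. Among 9378 B cells set by their own genes, the shares were 6.11% for Lef1, 1.41% for Tcf7, 1.14% for Igfbp4, 0.171% for Cd40lg and 0.0427% for Pdlim4, at median depths of 3238, 3219 and 3083 UMIs. Zbtb7b, which encodes ThPOK, the factor that fixes the helper lineage, had 176, 177 and 193 CPM in conventional CD4 T cells, against 102, 87.9 and 102 CPM in all other barcodes and 77.0, 79.2 and 88.1 CPM in B cells. The markers were chosen on these data, so they describe the cells and do not test the label.

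Most conventional CD4 T cells were of 1 kind by the split on Ccl5, Cxcr3 and Il2rb. In all, 1912 cells had no UMI of these 3 genes (83.3% ± 0.71, SD, n = 3). Another 234 had 1 UMI (9.90% ± 0.90), and 159 had 2 or more (6.79% ± 0.63). The last group, called positive cells below, held 104, 26 and 29 cells, or 7.09%, 7.20% and 6.07% of the conventional CD4 T cells of each library. The 1912 cells with none are called negative cells. With every cell thinned to 2000 UMIs, 5.03% ± 1.00 of 2204 conventional CD4 T cells and 37.8% ± 3.89 of CD8 T cells were positive (SD, n = 3).

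Positive cells reached the threshold mostly through Il2rb. Of the 159, 141 had an Il2rb UMI, 88 a Cxcr3 UMI and 67 a Ccl5 UMI. All 3 genes were found in 33 cells and 1 gene alone in 55. By UMIs, 47 cells had exactly 2, 23 had 3, 7 had 4 and 82 had 5 or more. Summed levels in positive cells were 2909, 1709 and 3576 CPM for Ccl5, 318, 484 and 518 CPM for Cxcr3 and 1138, 1185 and 782 CPM for Il2rb, against 0 by rule in negative cells.

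Other genes shifted along the split, and cells with a single UMI lay near the negative cells. Igfbp4 was detected in 82.3% of cells with 0 split UMIs, 75.6% with 1, 61.7% with 2, 40.0% with 3 to 4 and 14.6% with 5 or more. Ccr7 went in the same order, at 94.6%, 92.7%, 91.5%, 73.3% and 51.2%, and Lef1 was still detected in 76.8% of cells with 5 or more. S100a4, which encodes a calcium-binding protein of memory T cells, was detected in 1.62%, 2.56%, 17.0%, 26.7% and 64.6%. For Tbx21 the shares were 0.575%, 0%, 6.38%, 13.3% and 61.0%. The middle bins held few cells (47 and 30), and the exact binomial interval of S100a4 with 3 to 4 UMIs ran from 12.3% to 45.9%. Median depth was 3464.5 UMIs with 0 split UMIs and 4445.5 with 5 or more. Among B cells, 1.31% had an S100a4 UMI and 1.81% a Tbx21 UMI, against 1.62% and 0.575% of negative cells. B cells are not a measured background, so whether the shares in negative cells are background was not tested.

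**Figure D1:**
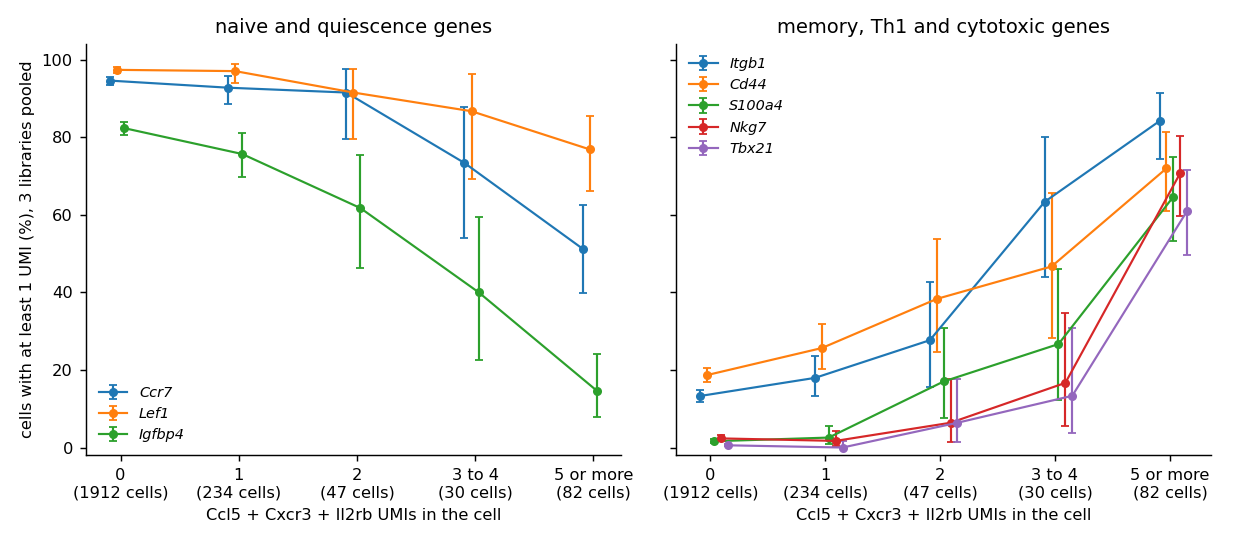
Share of conventional CD4 T cells with at least 1 UMI of each gene (y axis, percent, 3 libraries pooled, bars are exact binomial 95% intervals) by the sum of Ccl5, Cxcr3 and Il2rb UMIs in the cell (x axis, with cell numbers). Igfbp4 runs from 82.3% at 0 UMIs to 14.6% at 5 or more, while Tbx21 runs from 0.575% to 61.0%.

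Positive cells were compared with negative cells in sums of counts per library. They had less RNA of the naive programme and more of memory, Th1 and cytotoxic genes. Cd4, a gate gene, averaged 1037 ± 61.3 CPM in positive and 980 ± 12.5 CPM in negative cells (SD, n = 3). Of 8178 genes tested with edgeR's quasi-likelihood test, with the library as a block and Benjamini-Hochberg adjustment at 0.05, 498 rose (6.09%) and 295 fell (3.61%) in positive cells. The median log2 fold change over all tested genes was -0.01. Without replicate 1, the largest library, 243 rose and 108 fell, and without replicate 2, 391 rose and 163 fell. Depth differed between the arms, with medians of 4037, 4385 and 3147 UMIs in positive cells and 3544, 3362 and 3259 UMIs in negative cells.

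Of 20 tested genes of naive and quiescent T cells, 18 fell and none rose in positive cells, with a list median of -0.85 on the log2 scale. Lef1 had 689, 766 and 586 CPM in positive cells, against 1553, 1648 and 1650 CPM in negative cells (log2 -1.21, SE 0.11, edgeR adjusted p = 1.1e-11). Satb1, a chromatin organizer of the naive state, had 622, 468 and 342 CPM against 1536, 1429 and 1489 CPM in negative cells (log2 -1.54, SE 0.13). For both factors every positive value lay below every negative one.

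Igfbp4 had 755, 677 and 840 CPM in positive cells, against 2192, 2199 and 2395 CPM in negative cells. It fell by 1.55 (SE 0.11, edgeR adjusted p = 1.3e-15), and the call was lost (log2 -1.77, adjusted p = 0.21) when only cells without any B-cell or myeloid gate UMI were kept. Pdlim4 had 45.7, 72.6 and 39.1 CPM in positive cells against 213, 183 and 210 CPM in negative cells, the steepest fall of the list at -2.02 (SE 0.22). Actn1, an actin cross-linker, fell by 1.54, Bach2, a repressor of effector differentiation, by 1.17 and Tcf7 by 0.66. Il7r, the receptor of the survival cytokine IL-7, fell by 0.70.

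Ccr7 had 836, 621 and 1417 CPM in positive cells, against 1498, 1435 and 1513 CPM in negative cells. Replicate 3 lay near the negative range, and the fall of 0.67 (SE 0.15, edgeR adjusted p = 0.0047) was not called without the library block (adjusted p = 0.13) or with a threshold of 3 split UMIs for positive cells (adjusted p = 0.40). Klf2, which drives the homing genes, fell by 0.34 and Foxp1, a factor of quiescence, by 0.72. The call on Klf2 was lost under several alternatives, among them leaving out replicate 1 (adjusted p = 0.35) or replicate 2 (adjusted p = 0.17).

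Of 19 tested genes of activation and memory, 17 rose in positive cells and none fell, with a list median of 2.87. A gene could pass the low-count filter through the positive cells alone, which favours genes that are high there. Of this list, 14 genes also reached the filter's 13.1 CPM in the negative cells of every library, and of these 12 rose, with a median of 1.75. Itgb1, the beta-1 integrin chain of the VLA adhesion receptors, had 1520, 1274 and 1524 CPM in positive cells, against 58.8, 36.9 and 84.7 CPM in negative cells. No library overlapped, and Itgb1 rose by 4.64 on the log2 scale (SE 0.13, edgeR adjusted p = 7.4e-32). Id2, an inhibitor of DNA-binding factors that is used in effector cells, had 1123, 992 and 1016 CPM against 123, 139 and 148 CPM in negative cells (log2 3.02, SE 0.12). Cd44, the hyaluronan receptor that marks antigen-experienced T cells, had 246, 242 and 254 CPM against 62.0, 85.5 and 68.4 CPM in negative cells (log2 1.88, SE 0.17, edgeR adjusted p = 4.9e-12). The gap in Cd44 RNA was thus smaller than that in Itgb1, Id2 or Ahnak, a scaffold protein whose log2 change was 4.27.

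S100a6, a calcium-binding protein gene, had 191, 290 and 137 CPM in positive cells, against 10.5, 5.83 and 7.00 CPM in negative cells (log2 4.54, SE 0.31, edgeR adjusted p = 2.9e-16). S100a4 had 1262, 1129 and 1319 CPM in positive cells, against 38.3, 2.92 and 18.7 CPM in negative cells. Its 3 positive values were close together, whereas the negative values were widely spread. The log2 change of S100a4 was 5.64 (SE 0.53) with an edgeR adjusted p of 0.039, and it was not called at matched depth (adjusted p = 0.24), with 3 or more split UMIs (adjusted p = 0.072) or without replicate 3 (adjusted p = 0.33). Maf, a factor of several helper lineages, rose by 3.52, Hopx by 3.56, Anxa1 by 3.38, Lgals1 by 2.87 and Crip1 by 1.02. S100a6 and Anxa1 lay below 13.1 CPM in the negative cells of every library, so their changes are a description. Izumo1r, which encodes folate receptor 4, had 165, 226 and 567 CPM in positive cells, against 126, 138 and 138 CPM in negative cells. It was not called (log2 0.98, edgeR adjusted p = 0.24) but was called in 6 of 18 alternatives, with log2 values from 0.51 to 1.49 over all of them. Cd69, an early activation receptor, did not pass the test. Cd69 had 109, 88.7 and 137 CPM in positive cells, against 168, 112 and 162 CPM in negative cells.

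**Figure D2:**
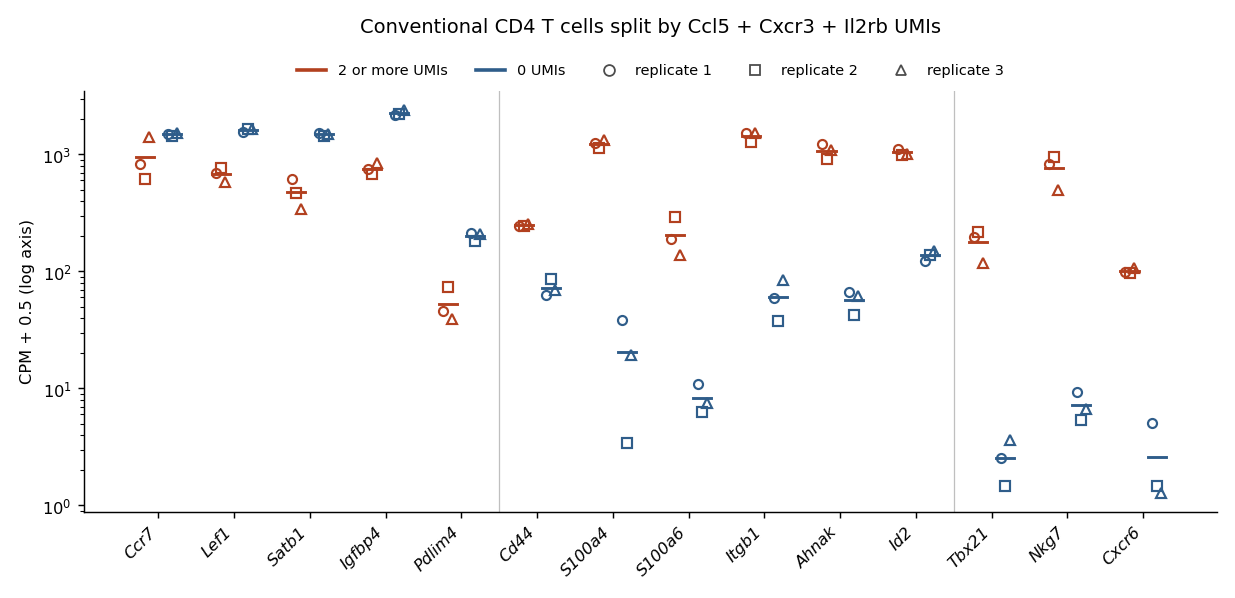
Level of 14 genes (y axis, CPM plus 0.5, log scale) in positive (left of each pair) and negative conventional CD4 T cells, with 1 symbol per library and a line at the mean. Ccr7, Lef1, Satb1, Igfbp4 and Pdlim4 have the lower mean in positive cells, and the other 9 genes the higher one; Ccr7 of replicate 3 lies near the negative values.

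Of 20 Th1 and cytotoxic genes, 13 passed the low-count filter and 8 of these lay below 13.1 CPM in the negative cells of every library, so they were tested only because they were high in positive cells. Among the 13, 12 rose and none fell, and their median of 5.10 is a description that turns on those 8 genes. Of the 5 genes that reached 13.1 CPM in the negative cells of every library, 4 rose, with a median of 1.49. The median of the tested genes was 3.79 with doublets removed (11 tested), 3.15 at matched depth (7 tested) and 2.99 without cells holding NK, NKT or gamma-delta transcripts (10 tested). Tbx21 had 197, 218 and 117 CPM in positive cells, against 2.05, 0.972 and 3.11 CPM in negative cells (log2 6.41, SE 0.42, edgeR adjusted p = 3.8e-17). Nkg7, which encodes a protein of cytotoxic granules, had 834, 951 and 498 CPM against 8.89, 4.86 and 6.22 CPM in negative cells (log2 6.70, SE 0.18, edgeR adjusted p = 1.5e-32). Both genes were near 0 in the negative cells of every library. Tbx21, Nkg7, Cxcr6 and Il18rap are among the 8 genes below 13.1 CPM there. Their changes and p-values are therefore a description and not a test of the split. Cxcr6, a homing receptor of effector T cells, had 99.3, 96.8 and 107 CPM against 4.56, 0.972 and 0.777 CPM in negative cells, and rose by 5.10. Il18rap and Il18r1, the receptor chains for IL-18, rose by 5.33 and 1.72, and Fasl, a death ligand, by 2.25. Runx3 rose by 0.78, a call lost at matched depth (adjusted p = 0.095) and without replicate 1 (adjusted p = 0.30).

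Ifng, Gzmb and Serpina3g, which are also transcripts of effector cells, had at most 3 UMIs each in all negative cells together, so ratios of pooled counts are given with counting intervals in place of fitted changes. Ifng was 119-fold higher in positive cells (95% interval 29.9 to 1038), and its 26 UMIs there came from 19 cells. Gzmb, the gene of granzyme B, was 419-fold higher (141 to 2059) and Serpina3g, a serpin gene, 141-fold (45.3 to 708). Prf1, the perforin gene, did not pass the test: it had 238, 137 and 9.77 CPM in positive cells, against 53.6, 64.2 and 63.7 CPM in negative cells (edgeR adjusted p = 0.43). Its order turned round between libraries, and with doublets removed its log2 difference was -0.31.

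Promoters are shown for 3 genes at the extremes of the split, Nkg7, Tbx21 and S100a4, and for Igfbp4, because their RNA moved in opposite directions. Each line runs 5′ to 3′ on the gene's strand from 250 bases before to 50 after the RefSeq start in GRCm38.p6, with matches to 2 searched motifs in capitals: AGGTGTG (T-box) and CAGGAAG (ETS) or its reverse complement CTTCCTG.
Nkg7 chr7:43436888-43437187 (+ strand): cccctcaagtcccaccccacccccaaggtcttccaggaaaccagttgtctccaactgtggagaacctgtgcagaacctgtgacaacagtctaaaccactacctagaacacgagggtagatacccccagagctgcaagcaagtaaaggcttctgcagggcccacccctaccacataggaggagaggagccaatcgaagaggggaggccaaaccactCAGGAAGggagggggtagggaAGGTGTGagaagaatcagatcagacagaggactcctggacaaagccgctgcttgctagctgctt
Tbx21 chr11:97115282-97115581 (- strand): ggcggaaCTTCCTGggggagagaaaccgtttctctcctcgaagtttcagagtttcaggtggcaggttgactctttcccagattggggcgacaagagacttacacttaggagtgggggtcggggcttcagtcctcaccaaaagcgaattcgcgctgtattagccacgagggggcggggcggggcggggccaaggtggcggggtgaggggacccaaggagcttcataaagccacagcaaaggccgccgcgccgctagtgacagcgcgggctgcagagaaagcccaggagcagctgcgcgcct
S100a4 chr3:90603520-90603819 (+ strand): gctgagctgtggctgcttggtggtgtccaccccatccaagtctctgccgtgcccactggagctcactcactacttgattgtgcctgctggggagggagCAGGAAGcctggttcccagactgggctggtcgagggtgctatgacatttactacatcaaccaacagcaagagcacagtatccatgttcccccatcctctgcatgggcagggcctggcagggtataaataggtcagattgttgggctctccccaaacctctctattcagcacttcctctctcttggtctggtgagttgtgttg
Igfbp4 chr11:99040994-99041293 (+ strand): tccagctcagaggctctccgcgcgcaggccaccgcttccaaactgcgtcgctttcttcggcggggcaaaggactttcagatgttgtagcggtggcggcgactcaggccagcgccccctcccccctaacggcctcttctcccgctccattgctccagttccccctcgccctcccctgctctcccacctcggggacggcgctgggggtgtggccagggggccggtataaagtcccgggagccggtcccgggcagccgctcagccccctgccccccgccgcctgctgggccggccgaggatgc

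The Nkg7 window held 1 T-box and 1 ETS match, the Tbx21 and S100a4 windows 1 ETS match each, and the Igfbp4 window none of 4 motifs searched on both strands. The other 2 motifs were CTTTGAT (TCF/LEF) and TGTGGTT (RUNX); the 4 strings do not contain one another. RefSeq promoters were matched by symbol for 6604 of 8178 tested genes, 395 of 498 that rose and 232 of 295 that fell. The ETS string was in at least 1 window of 22.8% of genes that rose, 13.4% of genes that fell and 15.1% of all tested genes. It was in 13.3% of 32851 single promoter windows of the same length. A gene can have several windows, so this last share is not of the same kind as the shares of genes. In the same order and with the same limit, the RUNX string was in 7.09%, 6.47%, 4.44% and 5.27% of these sets. For the T-box string the shares were 6.08%, 8.19%, 5.09% and 5.84%, and for the TCF/LEF string 3.04%, 3.88%, 3.01% and 3.73%. A match is a string in the window and says nothing of binding.

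Genes of the other helper lineages were mixed among positive cells. Gata3 had 290, 306 and 313 CPM in positive cells, against 170, 124 and 173 CPM in negative cells (log2 0.93, SE 0.15, edgeR adjusted p = 4.6e-06), while Il4ra, the IL-4 receptor chain, fell by 1.09. Ccr4, a chemokine receptor of Th2 and skin-homing cells, rose by 2.99. Rora and Ahr, factors used by Th17 cells among others, rose by 2.81 and 3.52. Of 7 tested follicular helper genes, 4 rose: Cxcr5, the B-cell follicle receptor, by 2.57, the co-receptor Icos by 1.28, Pdcd1, which encodes PD-1, by 2.75 and Slamf6, an adhesion receptor for B cells, by 0.83. Of the 5 that reached 13.1 CPM in the negative cells of every library, 2 rose, with a median of 0.43. Among all genes tested, 6.09% rose. Ccr4, Ahr and Pdcd1 lay below 13.1 CPM in the negative cells of every library, so their rises are a description. Bcl6 itself was not called, with 19.9, 16.1 and 19.5 CPM in positive cells, against 25.8, 21.4 and 35.0 CPM in negative cells.

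Lineage factors were compared cell by cell. Of 159 positive cells, 57 had a Tbx21 UMI and 94 a Gata3 UMI, and 34 had both, so Gata3 was detected in 59.6% of cells with Tbx21 and 58.8% of cells without. Maf was detected in 67.4% of the 46 cells with Rora and 28.3% of those without. Cxcr5 went the other way, at 12.3% of cells with Tbx21 and 19.6% of cells without. These shares pool 3 libraries and depend on depth, and no test was made of them.

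Signature cytokines were nearly undetected in these resting blood cells. Ifng was found in 21 of 2305 conventional CD4 T cells, of which 19 were positive cells (11.9% of 159) and 2 were negative cells (0.105% of 1912). A UMI of Ifng was found in 0.192% of B cells. Il4 was found in 3 cells (0.130%) and Il17f in 4 (0.174%). Il5, Il13, Il17a, Il21 and Il22 had no UMI in any of the 2305 cells; a count of 0 leaves room for up to 0.130% of cells with a UMI.

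Genes of migration and egress were divided. Of 18 tested, 9 rose, 3 fell and 6 were not called in positive cells. Of the 13 that reached 13.1 CPM in the negative cells of every library, 4 rose and 3 fell. Ccr2, named below, did not reach it in any library. The integrin chains Itgal, Itga4 and Itgb2 rose by 1.14, 1.11 and 0.89, and Ccr2, a receptor for inflammatory chemokines, by 4.36. S1pr1, the receptor that lets T cells leave lymph nodes, had 697, 814 and 840 CPM in positive cells, against 900, 993 and 1046 CPM in negative cells, and was not called (log2 -0.30, edgeR adjusted p = 0.073).

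Genes of T cell receptor signalling moved in both directions. Of 24 tested, 3 rose and 3 fell, with a list median of 0.02. For comparison with the counts in this paragraph, 6.09% of all 8178 tested genes rose and 3.61% fell. Rasgrp1, a Ras activator, fell by 0.80, while Nfatc1, a calcium-regulated factor, rose by 0.80. Of 16 costimulation and checkpoint genes 7 rose and none fell, but some were tested only because they were high in positive cells. Of the 12 that reached 13.1 CPM in the negative cells of every library, 3 rose, with a median of 0.16. Of 16 cytokine receptor genes 5 rose and 4 fell, and of the 15 that reached 13.1 CPM there 4 rose and 4 fell. Of 27 interferon-stimulated genes 2 rose and 2 fell. None of 11 immediate-early genes was called. Of 12 tested proliferation genes 5 rose, all of them below 13.1 CPM in the negative cells of every library, among them Mki67, which marks cycling cells, with 103, 153 and 48.8 CPM in positive cells, against 0.912, 2.92 and 1.55 CPM in negative cells (log2 6.09, SE 0.49, edgeR adjusted p = 8.6e-14). Mki67 was detected in 19 of 159 positive cells and 8 of 1912 negative cells. The changes of these 5 proliferation genes are a description, because they were tested only through the positive cells.

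Outside the lists, the genes with the largest called changes included Arl4d, a small GTPase gene (log2 5.74), Osbpl3, a lipid-binding protein gene (5.59), and the linker histone gene Hist1h1b (5.41). Cldnd2 and Kcnk5 had 1 UMI each in negative cells, and their pooled ratios were 257 (42.5 to 10517) and 230 (37.6 to 9429). Among those that fell, Arhgap29, which encodes a GTPase-activating protein, had 7.95, 8.06 and 9.77 CPM in positive cells, against 46.5, 31.1 and 36.5 CPM in negative cells (log2 -2.30, SE 0.54, edgeR adjusted p = 0.0019). That call was lost in 3 of 17 alternatives: without replicate 1 (log2 -1.88, adjusted p = 0.39), with the DESeq2 Wald test (adjusted p = 0.15) and without doublets and cells holding transcripts of other lymphocytes (adjusted p = 0.10).

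**Figure D3:**
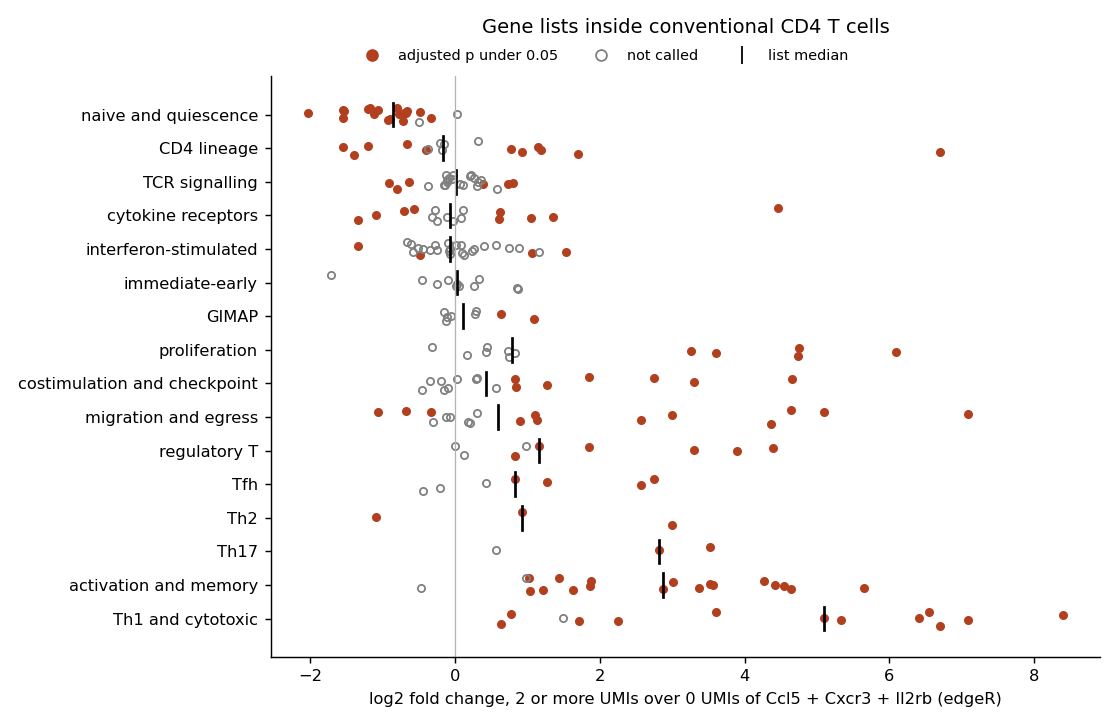
Log2 fold change of positive over negative cells (x axis, edgeR) for each tested gene of 16 lists (rows). Filled points passed at adjusted p under 0.05, open points did not, and black bars are list medians, which run from -0.85 for naive and quiescence genes to 5.10 for Th1 and cytotoxic genes. Points of Gzmb and Ifng rest on 3 or fewer UMIs in negative cells, and 8 of the 13 Th1 and cytotoxic points are genes below 13.1 CPM there.

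Markers of other lymphocytes also differed between the arms. The summed level of 10 NK-cell genes was 2460, 1605 and 58.6 CPM in positive cells, against 88.0, 83.6 and 80.8 CPM in negative cells, so it was high in replicates 1 and 2 and not in replicate 3. The sum of 6 NKT-cell genes was 220, 153 and 215 CPM against 9.80, 5.83 and 3.11 CPM in negative cells, where Il4 alone of that list had no UMI. The 8 gamma-delta T-cell genes summed to 59.6, 363 and 97.7 CPM against 31.5, 28.2 and 20.2 CPM in negative cells. The NK adaptor gene Tyrobp rose by 4.01, with 445, 210 and 9.77 CPM in positive cells, against 23.5, 10.7 and 10.1 CPM in negative cells, and its call was lost without the library block (adjusted p = 0.054). Zbtb16, the defining factor of NKT cells, had 55.6, 32.3 and 195 CPM in positive cells, against 5.47, 0 and 0 CPM in negative cells.

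Genes of regulatory T cells were higher as well, although Foxp3 was 0 by rule. Of 9 tested genes of this list, 6 rose and none fell; of the 4 that reached 13.1 CPM in the negative cells of every library, 2 rose. Ikzf2, which encodes Helios, had 79.5, 48.4 and 195 CPM in positive cells, against 7.75, 3.89 and 6.22 CPM in negative cells (log2 3.90), and Ctla4 had 91.4, 88.7 and 342 CPM against 14.4, 11.7 and 17.1 CPM in negative cells (log2 3.30). The 10 B-cell genes summed to 701, 516 and 948 CPM in positive cells, against 997, 1244 and 1359 CPM in negative cells, with Ebf1 at 0 in positive cells. At least 1 UMI of 8 NK, NKT or gamma-delta genes was found in 33 positive cells (20.8%) and 191 negative cells (9.99%). Ikzf2 or Il2ra was found in 36 positive cells (22.6%) and 41 negative cells (2.14%), and the doublet caller marked 15 positive cells, all in replicate 1, and 3 negative cells.

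With these cells and doublets left out, 95 positive cells (63, 16 and 16) and 1682 negative cells remained. Fewer genes passed the test, 185 that rose and 96 that fell, of which 183 and 92 were among the 498 and 295 above. Of the genes called in all cells and tested here, 421 of 423 and 293 of 293 kept their direction. Naive genes then fell in 13 of 20, memory genes rose in 15 of 18 and Th1 and cytotoxic genes in 9 of 10. Tbx21 was higher by 6.30 on the log2 scale, Nkg7 by 6.24, Itgb1 by 4.85 and S100a4 by 6.46 (edgeR adjusted p = 3.7e-08, 2.6e-13, 3.3e-16 and 1.9e-16). Before these cells were left out, Tbx21 and Nkg7 lay below 13.1 CPM in the negative cells of every library. Their values here too are a description. Lef1 fell by 1.04, while Il7r (adjusted p = 0.055) and Ccr7 (adjusted p = 0.070) were no longer called. The regulatory T list had 3 of 7 genes higher, Ctla4 among them by 2.62, and Prf1 stood at -0.63, not called in either set. With only cells that held no B-cell or myeloid gate UMI, 362 genes rose and 174 fell.

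Against CD8 T cells, conventional CD4 T cells differed first in lineage genes, with more RNA of helper factors and receptors and less of cytotoxic genes. With 9264 genes tested, conventional CD4 T cells had 1428 at a higher level (15.4%) and 1508 at a lower one (16.3%) by edgeR's quasi-likelihood test, with the same threshold and block. The classes also differed in makeup: 6.79% ± 0.63 of conventional CD4 and 49.8% ± 3.89 of CD8 T cells were positive for the split genes (SD, n = 3). The comparison was therefore repeated among cells with no split UMI, where 738 genes were higher and 709 lower. Without replicate 1, 891 genes were higher and 900 lower. Median depth was 3609, 3425 and 3242.5 UMIs in conventional CD4 and 4202, 4289 and 3915 UMIs in CD8 T cells.

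Zbtb7b, the gene of ThPOK, had 176, 177 and 193 CPM in conventional CD4 T cells, against 7.14, 8.22 and 10.5 CPM in CD8 T cells (log2 4.48, SE 0.11, edgeR adjusted p = 5.1e-41). St8sia6, a sialyltransferase gene, had 166, 172 and 146 CPM against 3.86, 5.62 and 5.67 CPM in CD8 T cells (log2 5.16, SE 0.13). Neither gene overlapped between the classes. Cd40lg had 217, 186 and 218 CPM against 1.99, 3.46 and 6.54 CPM in CD8 T cells, and Pdlim4 had 190, 163 and 202 CPM against 4.80, 7.35 and 9.16 CPM. Runx3, the factor that fixes the CD8 lineage, had 218, 197 and 182 CPM against 389, 397 and 448 CPM in CD8 T cells (log2 -0.98, SE 0.07, edgeR adjusted p = 1.2e-07). Itgae, the CD103 integrin chain, had 2.19, 0.790 and 0 CPM against 146, 121 and 140 CPM in CD8 T cells (log2 -6.47).

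In the CD4 lineage list, 11 of 20 genes were higher and 9 lower. The higher ones include Cd40lg, Lef1 and Tcf7, markers chosen on these data, which describe the cells. Among cells with no split UMI 9 of 19 were higher and 8 lower, with Zbtb7b at 4.89, Gata3 at 0.89 (0.48 in all cells) and Itgae at -7.25. Tox, a factor of CD4 lineage development, was 0.21 higher in all cells, and that call was lost in 7 of 15 alternatives. Among them were cells with no split UMI (log2 0.14, edgeR adjusted p = 0.46) and depth matched in part (edgeR adjusted p = 0.16). Leaving out replicate 2 (edgeR adjusted p = 0.11) or replicate 3 (edgeR adjusted p = 0.065) also lost it. Eomes, a factor of CD8 memory, stood at -4.06, the protease gene Ctsw at -2.54 and Crtam, a receptor of cytotoxic cells, at -2.69. Of 17 Th1 and cytotoxic genes 1 was higher and 14 lower. Nkg7 had 83.8, 97.2 and 40.6 CPM against 1263, 1244 and 1148 CPM in CD8 T cells (log2 -4.02, edgeR adjusted p = 0.0066), and -6.64 in cells with no split UMI. Markers of other lymphocytes were lower too. The 10 NK-cell genes, 6 of them called lower, summed to 303, 232 and 78.6 CPM in conventional CD4 T cells, against 515, 524 and 308 CPM in CD8 T cells. The 6 NKT-cell genes summed to 28.4, 23.7 and 18.0 CPM against 103, 98.2 and 64.5 CPM in CD8 T cells, and 2 of 3 tested were lower. The 8 gamma-delta T-cell genes summed to 31.9, 59.2 and 29.6 CPM against 114, 83.9 and 73.2 CPM in CD8 T cells, and 3 of 4 tested were lower. Without cells holding NK, NKT or gamma-delta transcripts, 16 of 17 Th1 and cytotoxic genes were lower and 1 was higher.

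**Figure D4:**
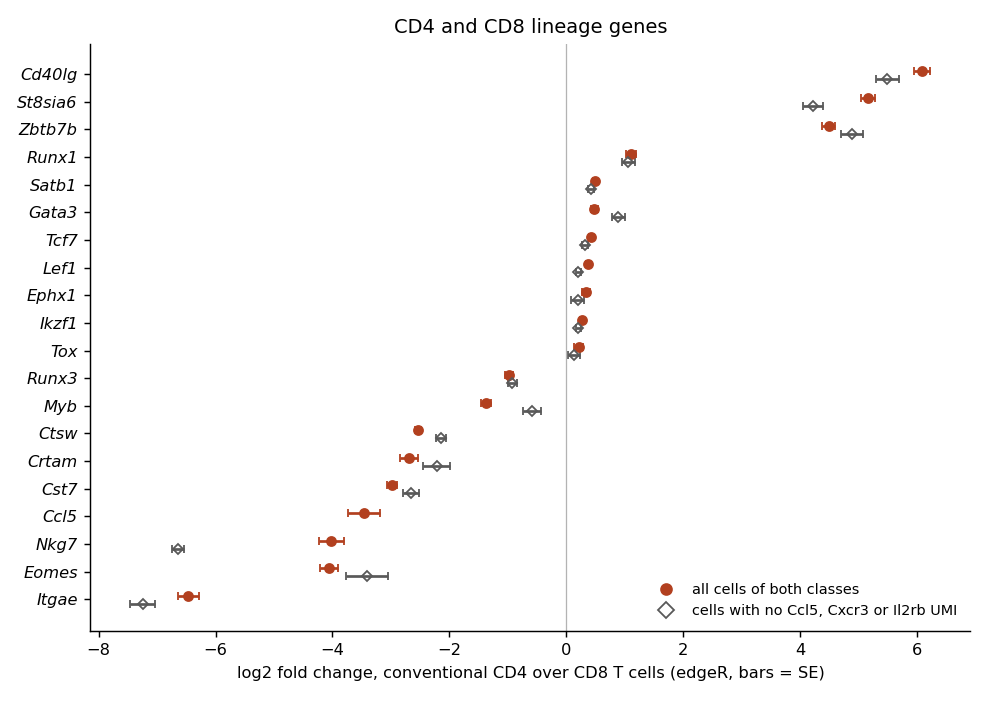
Log2 fold change of conventional CD4 over CD8 T cells (x axis, edgeR, bars are SE) for genes of the CD4 lineage list (rows). Filled circles are all cells of both classes and open diamonds are cells with no Ccl5, Cxcr3 or Il2rb UMI, where Zbtb7b lies at 4.89 and Nkg7 at -6.64.

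Naive genes were on the whole higher in conventional CD4 than in CD8 T cells. Over all cells 15 of 20 were higher and 3 lower, and in cells with no split UMI 12 were higher and 3 lower. This list holds Igfbp4, Lef1, Tcf7 and Pdlim4, which are markers chosen on these data, so their part of the counts is a description. Igfbp4 had 2072, 2036 and 2324 CPM in conventional CD4 T cells, against 580, 567 and 668 CPM in CD8 T cells, a log2 difference of 1.82. Ccr7 was higher by 0.45 in log2 terms and Lef1 by 0.38. Dapl1, a gene of naive T cells, ran the other way and had 296, 399 and 314 CPM against 448, 457 and 451 CPM in CD8 T cells (log2 -0.49).

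Receptor signalling and costimulation genes differed in both directions. Of 24 signalling genes, 12 were higher, 4 lower and 8 not called, and 12 and 4 were also the counts in cells with no split UMI. Of 18 tested costimulation and checkpoint genes, 9 were higher, 6 lower and 3 not called. Trat1, an adaptor of the T cell receptor, had 149, 136 and 154 CPM in conventional CD4 T cells, against 23.1, 22.9 and 27.0 CPM in CD8 T cells (log2 2.62, SE 0.09, edgeR adjusted p = 3.5e-33). Cd5, a negative regulator set by receptor signal strength, had 701, 641 and 819 CPM against 340, 324 and 345 CPM in CD8 T cells (log2 1.08). Cd28, the main costimulatory receptor, was higher by 1.00, Icos by 0.53, Il6ra, the IL-6 receptor chain, by 0.77 and Gpr183, an oxysterol receptor that guides cells in lymphoid organs, by 0.54. Ccr9, the gut-homing receptor, had 1.64, 8.69 and 1.93 CPM against 73.7, 51.9 and 80.7 CPM in CD8 T cells (log2 -4.66).

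Cd44 depended on which cells were compared. It had 84.2, 105 and 80.5 CPM in conventional CD4 T cells, against 105, 114 and 89.8 CPM in CD8 T cells, and the groups overlapped (log2 -0.24, SE 0.08, edgeR adjusted p = 0.0099). Among cells with no split UMI its log2 difference was 1.75 (edgeR adjusted p = 3.0e-11), and with depth matched in part 0.16 (edgeR adjusted p = 0.18). That matching left medians of 3609, 3425 and 3242.5 UMIs in conventional CD4 and 3898, 3854 and 3719.5 UMIs in CD8 T cells. The call on Cd44 was also lost in 5 further alternatives of 15: without replicate 1 (adjusted p = 0.54), with the DESeq2 Wald test (adjusted p = 0.52), without cells holding NK, NKT or gamma-delta transcripts (adjusted p = 0.24), without the library block (adjusted p = 0.16) and with a gate of 2 Cd4 UMIs (adjusted p = 0.052).

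Outside the lists, Myo10, an unconventional myosin gene, had 33.9, 32.4 and 26.4 CPM in conventional CD4 T cells, against 0.468, 1.30 and 0.872 CPM in CD8 T cells (log2 5.46, SE 0.32, edgeR adjusted p = 3.2e-22). Nav2 was higher by 4.62 and Adh1, an alcohol dehydrogenase gene, by 3.34. Adgrg5, an adhesion G protein-coupled receptor gene, had 3.10, 0.790 and 0.644 CPM against 226, 226 and 211 CPM in CD8 T cells (log2 -6.60, SE 0.14, edgeR adjusted p = 2.8e-42). Slc6a19, an amino acid transporter gene, stood at -6.99, Eng, a TGF-beta co-receptor gene, at -5.54 and Plac8 at -4.57. Klra6, an NK-type lectin receptor gene with 1 UMI in conventional CD4 T cells, was 190-fold lower in pooled counts (95% interval 33.8 to 7510).

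Use of T cell receptor beta variable (Trbv) genes also differed from CD8 T cells. Any Trbv UMI was found in 96.8%, 96.1% and 94.8% of conventional CD4 T cells, against 1.79%, 2.89% and 2.23% of B cells. A Trbv gene was called dominant where it had 3 or more UMIs and at least 3 times those of the next, which held in 981, 210 and 298 conventional CD4 T cells (66.9%, 58.2% and 62.3%). Trbv31 was dominant in 10.6%, 7.14% and 8.05% of these, against 1.99%, 1.87% and 0.802% of CD8 T cells with a dominant gene. Trbv2 stood at 9.70% ± 1.12 against 4.13% ± 0.37 in CD8 T cells, and Trbv3 at 10.5% ± 2.08 against 5.90% ± 0.45 (SD, n = 3). Trbv12-2 was the other way round, at 7.24%, 6.67% and 7.38% of conventional CD4 T cells, against 14.3%, 16.3% and 12.8% of CD8 T cells with a dominant gene.

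Among the 8 Trbv genes most frequent in conventional CD4 T cells, edgeR on summed counts called 6 higher there, 1 lower and 1 neither way. Ranking by frequency in conventional CD4 T cells favours genes that are high there, so these counts describe the 8 genes only. Genes more frequent in CD8 T cells, such as Trbv29 below, could fall outside the 8. The log2 differences were 2.26 for Trbv31 (SE 0.08, edgeR adjusted p = 1.6e-31), 1.46 for Trbv2, 0.82 for Trbv5, 0.78 for Trbv3, 0.66 for Trbv1 and 0.41 for Trbv19. Trbv12-2 stood at -0.72, and Trbv4 at 0.27 (adjusted p = 0.63). For Trbv31 the call was lost in cells with no split UMI, where the difference was 2.08 (adjusted p = 0.093). Trbv29, chosen after its values were seen, had 44.5, 35.5 and 34.8 CPM in conventional CD4 T cells, against 112, 128 and 108 CPM in CD8 T cells (log2 -1.49). Trbv12-1 and Trbv12-2 are near-identical, so counts could be split between them and both are uncertain.

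**Figure D5:**
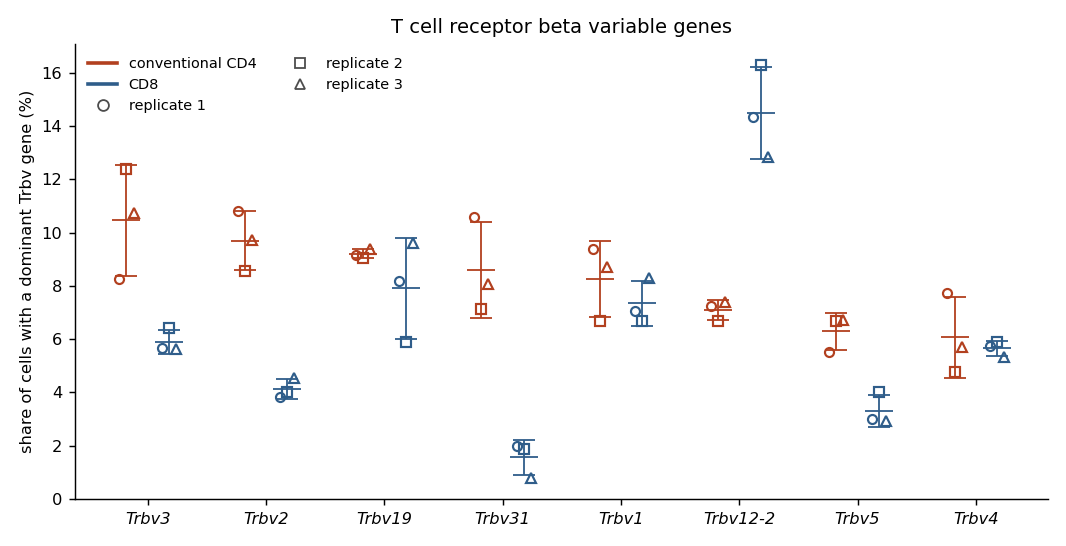
Share of cells with a dominant Trbv gene that used each of the 8 genes most frequent in conventional CD4 T cells (y axis, percent). Conventional CD4 T cells are on the left of each pair and CD8 T cells on the right. Each library has 1 symbol, with a dash at the mean and bars of 1 SD. Trbv31 lies between 7.14% and 10.6% in conventional CD4 and below 2% in CD8 T cells.

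Against Foxp3-positive CD4 T cells, conventional CD4 T cells had more RNA of naive genes and less of regulatory and memory genes. The edgeR quasi-likelihood test took in 8376 genes, of which 274 were higher (3.27%) and 538 lower (6.42%). The Foxp3-positive class held only 101, 37 and 21 cells, and 62.0% ± 5.24 of them were positive for the split genes (SD, n = 3). Foxp3 is a gate gene and was not tested. Without replicate 1, 119 genes were higher and 234 lower, and without replicate 2, 82 were higher and 278 lower.

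Of 16 tested regulatory T genes, 15 were lower and none higher, with a list median of -3.76, and Tgfb1, the cytokine gene, was not called. The count and median are a description, because Foxp3 set the classes apart. A gene could also pass the low-count filter through the Foxp3-positive cells alone, which favours genes that are high there. Ikzf2 had 15.3, 15.8 and 18.7 CPM in conventional CD4 T cells, against 694, 756 and 562 CPM in Foxp3-positive cells (log2 -5.42, SE 0.16, edgeR adjusted p = 2.0e-18). Il2ra, the high-affinity IL-2 receptor chain, had 7.66, 7.11 and 1.93 CPM against 543, 627 and 370 CPM in Foxp3-positive cells (log2 -6.38), and Ctla4 25.5, 22.9 and 39.3 CPM against 606, 580 and 549 CPM (log2 -4.44). These 3 genes were thus low but not absent in the gated cells. Nrp1, neuropilin 1, stood at -4.43, Tnfrsf4, which encodes OX40, at -3.62 and Izumo1r at -1.75.

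Naive genes were higher in 15 of 20 and lower in none. The markers chosen on these data (Igfbp4, Lef1, Tcf7 and Pdlim4) are in this list, and their part of the count is a description. Igfbp4 had 2072, 2036 and 2324 CPM in conventional CD4 T cells, against 395, 344 and 604 CPM in Foxp3-positive cells (log2 2.31, SE 0.13), Tcf7 was higher by 1.51, Lef1 by 1.32 and Il7r by 1.00. Pdlim4 had 3 UMIs in Foxp3-positive cells and was 40.8-fold higher in pooled counts (95% interval 13.9 to 198). Cd40lg, with 217, 186 and 218 CPM against 74.3, 40.5 and 68.6 CPM in Foxp3-positive cells, was higher by 1.65. Pde3b, a cyclic nucleotide phosphodiesterase gene, was higher by 3.08.

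Memory genes were lower in 16 of 19 and higher in 1, and the same limit of the low-count filter held for them. S100a4 had 147, 125 and 102 CPM in conventional CD4 T cells, against 2266, 1741 and 658 CPM in Foxp3-positive cells (log2 -3.68, SE 0.18, edgeR adjusted p = 1.3e-09), and the call was lost without cells holding NK, NKT or gamma-delta transcripts (adjusted p = 0.067). Itgb1 stood at -1.70, a call lost at matched depth (adjusted p = 0.28). Of 20 tested genes of migration and egress, 9 were lower, 2 higher and 9 not called. The chemokine receptors Ccr4 and Ccr2 stood at -3.99 and -3.91, and Ccr3 had no UMI in conventional CD4 T cells and 29 in Foxp3-positive cells, which makes it at least 123-fold lower with a floor of 3 pooled counts. Of 27 interferon-stimulated genes, 9 were lower and none higher, against 6.42% lower of all genes tested. The count was not stable: 1 of 27 was lower without replicate 2 and 2 of 27 with the DESeq2 Wald test. Without replicate 1, 6 of 28 were lower, and without replicate 3, 8 of 27 were lower and 1 higher.

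Against all other barcodes, which were largely not T cells, conventional CD4 T cells had more RNA of T cell receptor signalling genes and less of immediate-early genes and of most defining genes of other blood cells. Out of 10990 tested genes, edgeR's quasi-likelihood test called 2391 higher (21.8%) and 3181 lower (28.9%) in conventional CD4 T cells. This split depended on scaling: with plain library totals in place of TMM 3699 were higher and 2684 lower, and the median log2 difference of all genes moved to 0.13, against -0.01 with TMM. Without replicate 2, 1497 genes were higher and 2648 lower.

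Of 24 T cell receptor signalling genes, 20 were higher and 1, Nfatc1, was lower, with a list median of 1.57. The gate required T-cell receptor complex UMIs and most other barcodes were not T cells. This outcome was thus largely set in advance, and the count is a description. Against Foxp3-positive CD4 T cells, 4 of the 24 were higher and 3 lower. Il7r had 1053, 1026 and 933 CPM in conventional CD4 T cells, against 297, 191 and 156 CPM in all other barcodes (log2 2.13), so its level varied less between libraries in these cells than in other barcodes. Tesc, a calcium-binding protein gene, had 165, 145 and 157 CPM against 20.4, 13.9 and 12.5 CPM in other barcodes (log2 3.17), and Tnfrsf25, a death-domain receptor gene of T cells, was higher by 3.00.

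Immediate-early genes, which respond to stimulation within minutes, were lower in 14 of 19 and higher in 1, with a list median of -1.16. The nearest T-cell classes showed no such gap. Against CD8 T cells, 6 of 16 were higher and 5 lower (list median -0.06). Against Foxp3-positive cells, none of 10 was higher and 1 was lower (list median 0.02). Fos had 10.2, 7.11 and 7.09 CPM in conventional CD4 T cells, against 108, 42.2 and 45.2 CPM in other barcodes (log2 -3.31, SE 0.18, edgeR adjusted p = 1.2e-06). Nr4a1, a nuclear receptor gene induced by receptor signals, had 11.5, 7.11 and 12.9 CPM against 250, 132 and 130 CPM (log2 -4.31). Both stood below the other barcodes in every library.

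No tested defining gene of the other blood cells listed here was higher. This outcome was largely set in advance, since the gate limited B-cell and myeloid UMIs and the other barcodes held those other blood cells. A gene could also pass the low-count filter through the other barcodes alone. The counts that follow are therefore a description. Lower were 7 of 7 tested B-cell, 8 of 8 monocyte, 8 of 8 platelet, 5 of 5 basophil, 5 of 5 NKT-cell, 9 of 10 NK-cell, 5 of 6 dendritic, 6 of 8 neutrophil, 6 of 8 erythroid and 3 of 7 gamma-delta T-cell genes. The inflammasome gene Nlrp3 had 2 UMIs in conventional CD4 T cells and was 270-fold lower in pooled counts (95% interval 74.6 to 2228).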

How the data were processed

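The deposited files are gene by barcode matrices of raw UMI counts for 3 libraries, made with Cell Ranger 7.1.0 per the file headers. Which genome build and probes the authors used is not given in the sources used here. Barcodes with 200 or more genes were kept, and the gate was applied to raw counts. The cells and the gene lists were chosen with earlier results of these data known. Counts were summed per library and cell class and tested with edgeR 4.0.16 (R 4.3.3: filterByExpr, TMM, robust glmQLFit, glmQLFTest, library as block, since both classes come from the same library), with p-values adjusted by Benjamini-Hochberg over all genes tested. The 14 gate genes, the 3 split genes in the split, and the 6 markers against all other barcodes were not tested. Markers other than Cd4 were tested in the other comparisons. Levels are CPM from plain totals; fold changes use TMM scaling. The pipeline was tested on simulated counts.

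Library pairs differed by more than counting noise in the gated cells (chi-square per degree of freedom 4.02 to 16.1), so each counted as 1 sample. Alternatives were DESeq2 1.42.0, other scalings, no filter, no library block, each library left out, other gate thresholds, cells thinned to 2000 UMIs and Scrublet doublet removal (scanpy 1.11.5). Doublets were otherwise kept. Alternatives without cells holding NK, NKT, gamma-delta or regulatory T transcripts, or any B-cell or myeloid gate UMI, were chosen after seeing the data. Genes named are list members, gate and split genes and the 8 Trbv genes most frequent in conventional CD4 T cells. Outside the lists, they come from the 10 highest and 10 lowest called changes at 20 CPM or more. Only changes in the same direction in all 3 libraries were used there. Some genes are not reported here.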

Additional observations from a re-analysis of the deposited data

How the results depend on the processing

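In positive against negative cells, 498 genes rose and 295 fell. These counts were 280 and 75 with the DESeq2 Wald test, 151 and 126 at matched depth (fewer genes could be tested), 304 and 155 without cells holding NK, NKT or gamma-delta transcripts, and 185 and 96 without those cells, doublets and cells with Ikzf2 or Il2ra. With no B-cell or myeloid UMI 174 fell. Leaving out 1 library gave 243 to 553 that rose and 108 to 298 that fell.

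Against CD8 T cells, 592 genes were higher and 616 lower with the DESeq2 Wald test, 738 and 709 in cells with no split UMI, 951 and 999 with no replicate block, and 891 to 1359 and 900 to 1447 with 1 library left out. Against Foxp3-positive cells, the counts were 81 and 274 with the DESeq2 Wald test, 89 and 176 at matched depth, 167 and 327 with no B-cell or myeloid UMI, and 82 to 365 and 234 to 628 with 1 library left out. Against all other barcodes, 1564 were higher with the DESeq2 Wald test, 3699 with plain library totals and 1497 to 2389 with 1 library left out; 2049 were lower at matched depth. The share of positive cells was 7.43% with a gate of 2 Cd4 UMIs and 5.03% after thinning.

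Prf1 in positive against negative cells, not called in all cells, turned to -0.31 with doublets removed, -0.95 without cells holding NK, NKT or gamma-delta transcripts and -0.63 without all cells named above. Cd44 against CD8 T cells turned to 1.75 in cells with no split UMI and to 0.16 with depth matched in part. Trbv4 against CD8 T cells, not called, turned to -0.12 without replicate 1 (range -0.12 to 0.48 with 1 library left out). Tgfb1 against Foxp3-positive cells, not called, turned to 0.0103 at matched depth. The causes of all these changes were not tested. Over all named genes and alternatives, 2030 kept direction and side of the threshold, 40 lost the call and 12 gained one. Age and library cannot be told apart, and rare cells with few UMIs in 1 arm limit the precision of ratios.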
